A study of Mus musculus with 8 samples.

Results

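The genes described here encode the enzymes and carriers that take fatty acids into the muscle fibre, oxidise them in the mitochondrion, and feed acetyl-CoA into the citric acid cycle. They are a list of 42 genes chosen by symbol, each of which matched 1 Ensembl identifier among the 49315 genes in the count files. All 42 passed the filter on low counts, so none was left out of the tests. The muscle was gastrocnemius, the large mixed calf muscle, from C57BL/6 mice aged 3, 12, 24 or 30 months, with 2 RNA-seq libraries per age and 8 in all. The labels give no genotype or treatment besides age, and do not say if both libraries of 1 age come from different, single or pooled animals. P-values here therefore measure the spread between libraries, which may be technical. Whole muscle was used, so fewer cells of a type and less RNA per cell cannot be told apart.

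Fatty acids reach the fibre after lipoprotein lipase frees them from circulating triglyceride, are carried across the membrane, bound in the cytosol and joined to coenzyme A. Carnitine then ferries the long chains into the mitochondrion, where each turn of the beta-oxidation spiral removes an acetyl-CoA and hands electrons to the respiratory chain. Pyruvate from glucose enters the same pool through the pyruvate dehydrogenase complex, and the citric acid cycle oxidises the acetyl group. In skeletal muscle these enzymes are more abundant in oxidative fibres than in fast glycolytic ones.

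Library totals ran from 42404254 to 59245029 counts. A single library held between 579 counts for the least counted of the 42 genes and 38709 for the most counted. The chi-square between the 2 libraries of an age was 47.0 to 117 times its degrees of freedom over all genes, so they differed by far more than counting error. The share of counts that fell on the 42 genes together was 0.668% to 1.10% per library. The summed level of 8 skeletal muscle genes such as Ckm and Acta1 was 99058 to 152160 CPM (counts scaled to a common library total), as the tissue label has it. Kidney transcripts stood high in 5 libraries, called those with kidney transcripts below: the summed level of 9 kidney genes was 38.8 and 11.9 CPM at 3 months, 4.51 in replicate 1 of 12 months, 4.32 in replicate 1 of 24 months and 3.97 in replicate 2 of 30 months. In the other 3 libraries it was 0.591 to 0.733 CPM, and the kidney genes Umod and Slc34a1 were at 0 in the replicate 2 libraries of 12 and 24 months and in replicate 1 of 30 months. Not every kidney gene followed: Aqp2 was at 0.357 CPM in replicate 2 of 12 months, against 0.283 and 0.123 at 3 months. Cubn was at 0.301 to 0.489 CPM in these 3 libraries. They are called those without kidney transcripts, which means a sum below 1 CPM and not none. The same 3 libraries stood apart in clock genes, with a mean log2 level of 5 genes including Dbp minus that of 3 genes including Arntl of 3.59 to 4.08, against 0.47 to 1.87 in the 5. Nr1d1, of the same list as Dbp, did not follow. It was at 23.1, 28.2 and 57.8 CPM in the 3 libraries, against 36.3 to 66.6 in the 5 with kidney transcripts. Both libraries of 3 months are in the first set and each later age has 1 library in each, so that results below are also given from a model with this library set as a term, or within the set with kidney transcripts.

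None of the 42 genes of fatty acid oxidation and the citric acid cycle passed the test between any 2 ages. In edgeR's quasi-likelihood test at an adjusted p of 0.05, 0 of 42 were called between 12 and 3 months, where 0.0409% of all 19571 tested genes were called. The count was 0 between 24 and 3 months (0.102% of all genes) and 0 between 30 and 3 months (0.148% of all genes). It was also 0 between 24 and 12 months (0% of all genes), between 30 and 12 months (0.00511%) and between 30 and 24 months (0%). Across the 4 ages 0 were called (0.0613% of all genes), and for a slope on age 0 (0.133%). At an unadjusted p below 0.05 there was 1 gene between 24 and 3 months, Acot2, against 7.56% of all genes, and 1 between 30 and 3 months, Idh2, against 8.52%. For the slope there were 3, Idh2, Ogdh and Slc27a1, against 9.83% of all genes. There were 0 between 12 and 3 months (5.5% of all genes), 24 and 12 months (3.07%), 30 and 12 months (5.21%), 30 and 24 months (3.1%) and across the 4 ages (5.66%). DESeq2 also called 0 of the 42 in each of these comparisons.

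The intervals show how large a change could have gone unseen. Between 30 and 3 months the log2 fold changes of the 42 genes lay between -0.21 and 0.80, with a median of 0.03 against 0.01 over all tested genes. The 95% interval of the fold change lay within 2-fold either way for 40 of 42 genes, the exceptions being Lpl and Idh2, and within 1.5-fold for 22. The median of the members was -0.03 at 12 months and 0.05 at 24 months, each against 3 months. Intervals lay within 2-fold for 41 and 40 genes in these comparisons, and the exceptions were Cd36 at 12 months, and Cs and Idh2 at 24 months. The standard error of the members had a median of 0.20 on the log2 scale, against 0.26 over all genes. Both libraries of 30 months were above both of 3 months for 6 members and below for 6, where 21.1% and 20.2% of all genes were so placed. Between 24 and 3 months the counts were 7 higher (20% of all genes) and 4 lower (19.4%), and between 12 and 3 months 3 higher (19.3%) and 5 lower (19.2%). Between 24 and 12 months they were 4 higher (14%) and 0 lower (14%), between 30 and 12 months 3 higher (16.1%) and 1 lower (15.7%), and between 30 and 24 months 0 higher (13.3%) and 1 lower (12.3%). In each case the share of the 42 genes was below that of all genes.

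**Figure D1:**
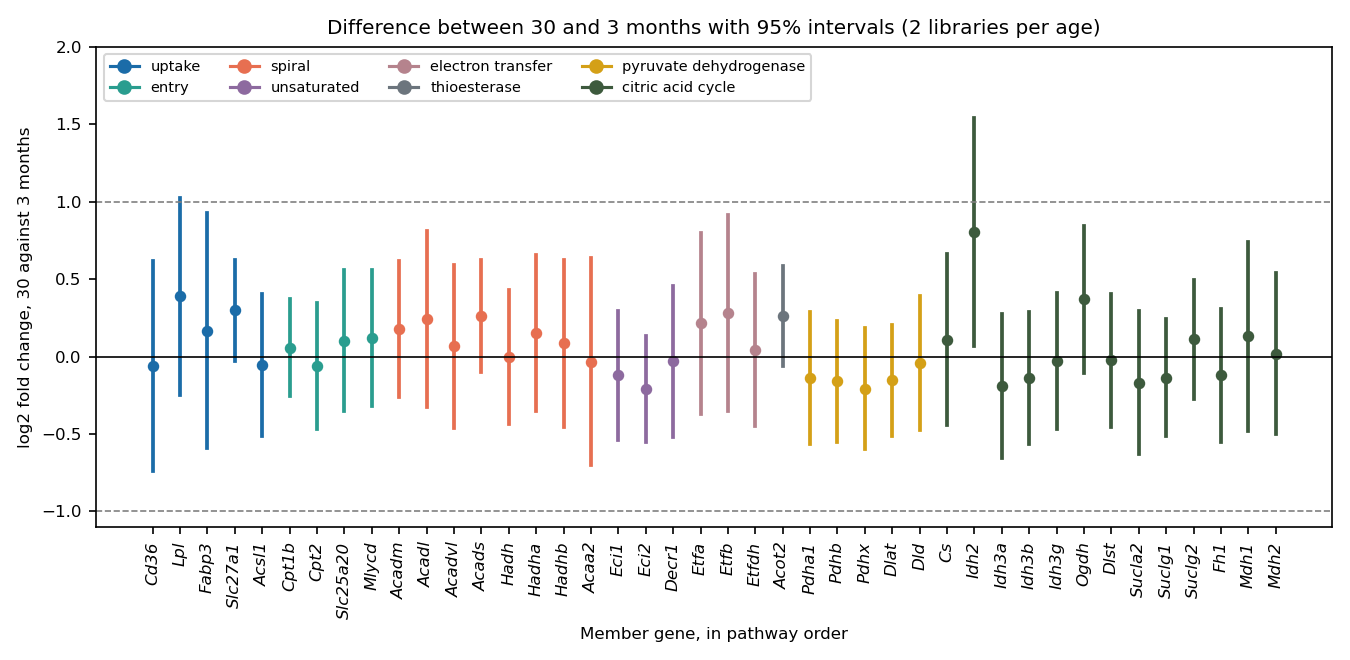
Log2 fold change between 30 and 3 months for each of the 42 genes (points) with its 95% interval (bars), from a model over 8 libraries, grouped by role in colour. Dashed lines mark a 2-fold change. The interval of Idh2 alone lies wholly above 0, and its adjusted p was 0.544.

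Levels differed between the genes far more than between the ages. Per length of exon, in RPKM (scaled CPM per kilobase of exon, where TMM scaling corrects for library composition), the mean over 8 libraries ran from 6.47 for Acot2 to 349.8 for Fabp3. These means were above 79.6% to 99.5% of tested genes. The exon length counts every annotated exon, so RPKM of genes with long or many isoforms, such as Hadha with 8730 bases, is understated. Between the lowest and the highest of the 8 libraries a gene differed by 1.12-fold (Cpt1b) to 2.79-fold (Idh2), with a median of 1.46-fold, and 2 genes, Idh2 and Fabp3, reached 2-fold.

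**Figure D2:**
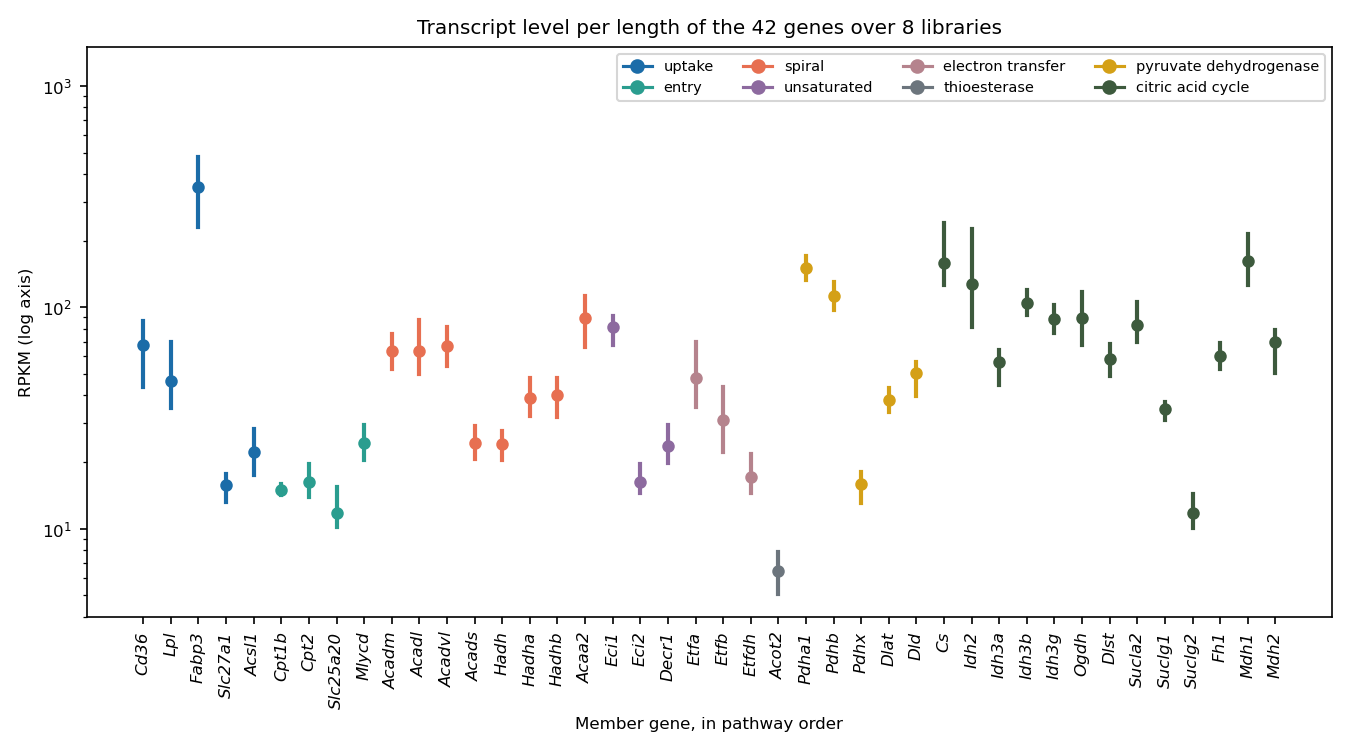
Transcript level per length (RPKM, log axis) of the 42 genes in pathway order. Points are means over 8 libraries and bars run from the lowest to the highest library. Fabp3 has the highest mean, 349.8 RPKM, and Acot2 the lowest, 6.47 RPKM.

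Among the genes of fatty acid uptake and activation, Fabp3, which encodes the fatty acid binding protein of muscle and heart cytosol, was the most abundant of all 42. Cd36, the fatty acid translocase of the membrane, had a mean of 67.8 RPKM, Lpl 46.5, Acsl1, which joins long chains to coenzyme A, 22.3, and the transporter gene Slc27a1 15.8. Fabp3 was at 284 and 255 CPM at 3 months, 346 and 191 at 12, 291 and 332 at 24, then 211 and 393 at 30 months (replicate 1, then 2, here and below). The libraries of every age overlapped those of 3 months except at 24 months, where both were higher, and the pair at 12 and at 30 months was the widest. Its log2 fold change between 30 and 3 months was 0.17 (SE 0.33, adjusted p = 0.941), and it turned to -0.35 without replicate 2 of 30 months.

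Slc27a1 (ENSMUSG00000031808, chromosome 8, 71568882 to 71587302, GRCm38) was steady within each age. It was at 82.6 and 76.9 CPM at 3 months, 92.6 and 93.9 at 12, 103 and 92.4 at 24, and 96.2 and 99.9 at 30 months. All 6 later libraries were above both of 3 months. How many of all tested genes were so placed was not counted, here and for the genes below. The log2 fold changes at 12, 24 and 30 months were 0.23, 0.29 and 0.30 (SE 0.14, adjusted p = 0.625 for the last), and none of these passed. Lpl was at 516 and 369 CPM at 3 months, 507 and 386 at 12, 496 and 468 at 24, and 431 and 728 at 30 months. Replicate 2 of 30 months was the highest, and without it its difference from 3 months of 0.39 on the log2 scale (SE 0.28, adjusted p = 0.790) became -0.039. Lpl and Cd36 are also expressed by cells other than fibres: the summed level of 8 endothelial genes was 163 to 269 CPM and of 8 adipocyte genes 113 to 233 CPM of the library total, and no gene of either list was at 0. Their part in these levels was not tested.

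Of the genes for entry into the mitochondrion, Cpt1b had the smallest fold between its lowest and highest library of all 42, 1.12. Cpt1b, the muscle form of the carnitine palmitoyltransferase of the mitochondrial outer membrane and the regulated gate of the pathway, stayed between 48.1 and 53.6 CPM in all 8 libraries. Its 95% interval between 30 and 3 months ran from -0.25 to 0.37 on the log2 scale. The level per length was 14.9 RPKM for Cpt1b, 16.3 for Cpt2, its partner at the inner membrane, 11.7 for the carnitine-acylcarnitine carrier gene Slc25a20, and 24.5 for Mlycd, which removes the malonyl-CoA that inhibits the gate. Slc25a20 was at 54.7 and 49.1 CPM at 3 months, 60.3 and 54.6 at 12, 50.1 and 74.9 at 24, and 50.9 and 60.6 at 30 months. Only replicate 2 of 24 months stood above the rest. The log2 fold change at 30 months was 0.10 (SE 0.20, adjusted p = 0.941), or -0.028 without replicate 2 of 30 months.

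The 8 genes of the beta-oxidation spiral had log2 fold changes of -0.03 (Acaa2) to 0.26 (Acads) between 30 and 3 months, 6 of 8 above 0, and the outermost limits of their intervals were -0.70 and 0.81. The acyl-CoA dehydrogenases act first, each on its own range of chain lengths: Acadvl had a mean of 66.7 RPKM, Acadm and Acadl 63.3 each, and the short-chain gene Acads 24.3. Acads was at 47.4 and 46.8 CPM at 3 months, 66.0 and 51.8 at 12, 57.3 and 58.9 at 24, and 52.5 and 60.4 at 30 months. As with Slc27a1, every later library lay above both of 3 months, but the log2 fold change of 0.26 at 30 months (SE 0.16, adjusted p = 0.723) did not pass. It was 0.34 with the library set as a term (SE 0.14, adjusted p = 0.292). Acadl was at 132 and 107 CPM at 3 months, 139 and 99.8 at 12, 128 and 125 at 24, and 108 and 175 at 30 months. Here replicate 2 of 30 months was again the highest of 8, and its log2 difference of 0.24 (SE 0.25, adjusted p = 0.868) became -0.14 without it. The difference of Acadl was 0.41 with the library set as a term (SE 0.18, adjusted p = 0.332).

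The subunits of the mitochondrial trifunctional protein, which carries out the last steps on long chains, are encoded by neighbouring genes that run in opposite directions, Hadha (chromosome 5, 30118304 to 30155162, minus strand) and Hadhb (chromosome 5, 30155248 to 30184593, plus strand). The bases between the 2 annotated genes, shown because this stretch separates their annotated starts, follow from RefSeq GRCm38.p6 on the Hadhb strand, with matches to the GC box GGGCGG (either strand) in capitals.
Hadha to Hadhb, chr5:30155163-30155247: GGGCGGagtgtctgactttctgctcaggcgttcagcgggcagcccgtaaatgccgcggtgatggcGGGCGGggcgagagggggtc
These 85 bases hold 2 such matches and are 69.4% G and C. Hadha was at 346 and 298 CPM at 3 months, 365 and 282 at 12, 338 and 382 at 24, and 297 and 419 at 30 months. Hadhb was at 298 and 217, 280.5 and 209.9, 261 and 316, and 234 and 311 CPM in the same order. Both genes had the lower library of each age in the same replicate, as most of the 42 genes did at each age. Replicate 2 was lower for 30 of 42 at 3 months and 39 at 12 months. It was higher for 32 at 24 months and 38 at 30 months. The ratio of Hadhb to Hadha per length was 0.964 to 1.14 over the 8 libraries, with no order by age. Of the remaining genes of the spiral, Acaa2, the thiolase, had a mean of 89.8 RPKM, and Hadh, which acts on shorter chains, 24.2.

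Unsaturated fatty acids need extra enzymes that shift or reduce double bonds. Eci1 had a mean of 81.3 RPKM, Decr1 23.8 and Eci2 16.3. All 3 had negative log2 fold changes between 30 and 3 months, -0.12, -0.03 and -0.21. Eci2 was at 51.3 and 42.2 CPM at 3 months, 42 and 42.6 at 12, 37.9 and 44.2 at 24, and 39.1 and 41.8 at 30 months. Replicate 1 of 3 months, the library with most kidney transcripts, was the highest, and without it its log2 difference of -0.21 (SE 0.15, adjusted p = 0.790) was at its smallest, -0.06. The transcript of Eci2 shares a stretch of 271 bases at 97.0% identity with that of Zfp445, and it overlaps a gene on the other strand, so its counts are less certain.

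Electrons from the acyl-CoA dehydrogenases pass to the electron transfer flavoprotein, made of the products of Etfa and Etfb, and from there to ubiquinone through that of Etfdh. Their means were 48.2, 30.9 and 17.1 RPKM. Etfb was at 32.2 and 36.0 CPM at 3 months, 42.8 and 29.3 at 12, 39.0 and 25.8 at 24, and 32.0 and 50.8 at 30 months. Etfa was at 90.6 and 87.9, 92.4 and 70.5, 93.7 and 65.3, and 79.3 and 128 CPM in that order. At each later age the library without kidney transcripts was the lower one for both, by a mean of -0.60 for Etfb and -0.53 for Etfa on the log2 scale, while Etfdh had no such order. The ratio of Etfa to Etfb per length was 1.37 to 1.78. Log2 fold changes between 30 and 3 months were 0.28 (SE 0.28, adjusted p = 0.860) for Etfb and 0.21 (SE 0.26, adjusted p = 0.890) for Etfa, and they turned to -0.091 and -0.17 without replicate 2 of 30 months. In the model that includes the library set, Etfb came to 0.54 (SE 0.13) with an adjusted p of 0.0593 and Etfa to 0.44 (SE 0.14) with 0.146.

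Upstream sequence was looked at because many of these genes are known targets of the estrogen-related receptors, PPARs and NRF1. RefSeq windows from 250 bases before to 50 after the start were found for 37 of the 42 genes. None was found for Lpl, Cpt1b, Acaa2, Decr1 and Idh3a. Both strands were searched, and a window counts once. Each of the 37 genes has 1 window, the one nearest its annotated start. The 32851 windows set beside them are all those of the reference, whether or not their genes were tested, and a gene may have several. The shares below therefore compare unlike sets. The estrogen-related receptor site TCAAGGTCA was in 0 of 37 windows, against 0.423% of all 32851 windows, and the nuclear receptor direct repeat with 1 base between in 0, against 0.381%. With sites this rare, 0 matches in 37 windows cannot show whether these genes carry them less often. The shorter AAGGTCA, which lies inside the estrogen-related receptor site, was in 1, that of Acadm, against 4.72%. The NRF1 palindrome was in 4, those of Etfb, Etfdh, Dld and Sucla2, or 10.8% against 4.6% of all windows. The CCAAT box (CCAAT) was in 19 and the GC box (GGGCGG) in 25 of 37, or 51.4% and 67.6%, against 37.4% and 35.7% of all. A window can hold several motifs, these are matches of letters, and binding was not measured. The stretch upstream of Etfb, the gene that differed most between the library sets, is shown with its NRF1 match in capitals (plus strand, 5′ to 3′).
Etfb, chr7:43443822-43444082: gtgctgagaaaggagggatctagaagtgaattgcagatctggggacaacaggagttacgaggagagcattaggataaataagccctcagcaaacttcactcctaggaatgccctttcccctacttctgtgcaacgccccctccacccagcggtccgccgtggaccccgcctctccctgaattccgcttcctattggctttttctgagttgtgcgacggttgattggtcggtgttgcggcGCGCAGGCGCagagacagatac

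Acot2 encodes a mitochondrial thioesterase that frees fatty acids from coenzyme A, and was the least abundant of the 42 genes. Acot2 (ENSMUSG00000021226, chromosome 12, 83987861 to 83993873, GRCm38) was at 12.5 and 11.2 CPM at 3 months, 15.0 and 14 at 12, 15.5 and 17.2 at 24, and 14.5 and 13.8 at 30 months. All later libraries were above both of 3 months. Its log2 fold change at 12 months was 0.29, at 24 months 0.46 (SE 0.14, adjusted p = 0.499) and at 30 months 0.26 (SE 0.14, adjusted p = 0.676). The neighbouring copy Acot1 matches it at 95.1% of 1274 bases and had 359 counts over all libraries against 5755 for Acot2, so some reads of the pair may be misplaced.

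For the pyruvate dehydrogenase complex all 5 genes had negative log2 fold changes at 12, 24 and 30 months against 3 months, with medians of -0.16, -0.19 and -0.15, and 0 were called at any age. Of all genes 50.5%, 51.9% and 51.4% were above 0, and these comparisons share the libraries of 3 months. In the model that includes the library set only Dld at 30 months was above 0, at 0.01. Within the set with kidney transcripts only Dlat at 12 months (0.004) and Dld at 30 months (0.07) were. At 30 months they ran over -0.04 (Dld) to -0.21 (Pdhx), and the outermost limits of the intervals were -0.60 and 0.39. Pdha1 and Pdhb, the subunits of the enzyme that decarboxylates pyruvate, had means of 151 and 112 RPKM, Dlat, the acetyl carrier of the core, 38.1, Dld, the dehydrogenase shared with other complexes, 50.5, and Pdhx, which binds that dehydrogenase to the core, 15.9. Pdha1 was at 638 and 599.8 CPM at 3 months, 566 and 497 at 12, 508 and 579 at 24, and 516 and 610.3 at 30 months. The 2 libraries of 3 months lay above those of 12 and 24 months, and at 30 months the groups overlapped (log2 fold change -0.14, SE 0.19, adjusted p = 0.905).

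Pdhx was at 71.1 and 65.6 CPM at 3 months, 64.8 and 57.6 at 12, 51.5 and 69.8 at 24, and 57.3 and 61.1 at 30 months. Its libraries of 30 months were below those of 3 months, by -0.21 on the log2 scale (SE 0.17, adjusted p = 0.823). Dlat was at 210.3 and 193 CPM at 3 months, 202 and 178 at 12, 164 and 179.6 at 24, and 177 and 185 at 30 months, again with both libraries of 30 months below those of 3 months (-0.15, SE 0.16, adjusted p = 0.868). The ratio of Pdha1 to Pdhb per length was 1.29 to 1.40 over 8 libraries, and that of Pdhx to Dlat 0.389 to 0.483. Both libraries of 3 months also had the most kidney transcripts and the lowest clock-gene values (0.47 and 0.65), and the part of these in the differences was not tested.

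In the citric acid cycle the 13 genes split evenly around 0 between 30 and 3 months, 6 above and 7 below, with a median of -0.02. Citrate synthase (Cs), which joins acetyl-CoA to oxaloacetate, had a mean of 159 RPKM, and Mdh1, the cytosolic malate dehydrogenase of the malate-aspartate shuttle, 162, against 69.5 for its mitochondrial counterpart Mdh2. The NAD-linked isocitrate dehydrogenase genes Idh3a, Idh3b and Idh3g had 56.8, 104 and 88.4 RPKM, and the NADP-linked Idh2 128. Ogdh and Dlst, of the oxoglutarate dehydrogenase complex, had 89.8 and 58.6, and fumarase (Fh1) 60.3. Of the succinyl-CoA ligase genes, Suclg1 had 34.6, the ATP-linked Sucla2 83.5 and the GTP-linked Suclg2 11.8 RPKM. Sucla2 exceeded Suclg2 per length by 6.33 to 8.24-fold in the 8 libraries, with 8.02 and 8.24 in those of 3 months and at most 7.37 in the later ones.

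Idh2 showed the largest difference of the 42 genes. Idh2 (ENSMUSG00000030541, chromosome 7, 80094846 to 80115392, minus strand, GRCm38) encodes the mitochondrial enzyme that makes NADPH while converting isocitrate to oxoglutarate. The 208 bases before its annotated start are shown because its log2 fold change between 30 and 3 months was the largest of the 42 genes. They hold neither of the GC box and CCAAT box matches of its window, so no letter is in capitals (minus strand, 5′ to 3′, 66.3% G and C).
Idh2, chr7:80115393-80115600: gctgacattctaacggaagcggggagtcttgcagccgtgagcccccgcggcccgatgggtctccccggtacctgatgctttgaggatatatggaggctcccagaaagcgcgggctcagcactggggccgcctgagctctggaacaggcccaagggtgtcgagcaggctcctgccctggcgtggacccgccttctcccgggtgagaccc
Idh2 was at 296 and 210.2 CPM at 3 months, 322 and 236 at 12, 382 and 321 at 24, and 297 and 585 at 30 months. Replicate 2 of 30 months was by far the highest, replicate 1 of that age lay close to replicate 1 of 3 months, and at 12 months the libraries overlapped those of 3 months. The log2 fold changes at 12, 24 and 30 months were 0.14, 0.47 and 0.80 (for the last SE 0.33, 95% interval 0.07 to 1.54, adjusted p = 0.544). Per month of age its slope was 0.029 in log2 units (SE 0.0098, adjusted p = 0.328).

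In the model that includes the library set, Idh2 was the 1 gene of 42 called between 30 and 3 months, where 2.13% of all genes were called. Its log2 fold change was then 1.02 (SE 0.22, adjusted p = 0.0427), and over its alternatives the adjusted p ran from 0.0427 to 1.00. That model also called its slope, 0.036 per month (SE 0.0068, adjusted p = 0.0231), as 1 of 42 where 1.51% of all genes were called. Within the set with kidney transcripts, the single library of each later age differed from the mean of 3 months by 0.37 at 12, 0.61 at 24 and 1.23 at 30 months on the log2 scale. Among the libraries without kidney transcripts there is none of 3 months, and their levels were 236, 321 and 297 CPM at 12, 24 and 30 months. Without replicate 2 of 30 months the log2 fold change was 0.23, and without replicate 1 it was 1.21.

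Markers of slow fibres, which are rich in mitochondria, are given beside Idh2. The summed level of 10 slow fibre genes was 965 and 533 CPM of the library total at 3 months, 1478 and 994 at 12, 1556 and 999.7 at 24, and 1670 and 3395 at 30 months. Its lowest and highest libraries were those of Idh2. All 10 genes had positive log2 fold changes between 30 and 3 months, with a median of 1.66. Of these, 10 of 10 had an unadjusted p below 0.05 (8.52% of all genes did), and 1, Myh7, the slow myosin, was called (2.77, SE 0.35, adjusted p = 0.028), where 0.148% of all genes were. None of the 10 was at 0 in a library. Summed heart genes were highest in the same library too, 27.1 CPM against 7.93 to 14.4 in the others, though the atrial gene Myl7 was at 0 in 5 of 8 libraries and Nppb in 6, this one included, and so were 8 macrophage genes, 386 against 98.5 to 199.8 CPM. The sums of endothelial genes (269 CPM) and adipocyte genes (233 CPM) were also highest in that library, and that of 8 skeletal muscle genes was lowest there (99058 CPM). The part of these cells or fibres in the level of Idh2 was not tested. The ratio of Idh2 to Idh3a per length was 1.9 and 1.27 at 3 months, 2.01 and 2.06 at 12, 2.88 and 1.95 at 24, and 2.12 and 4.14 at 30 months, and Idh3a itself had a log2 fold change of -0.19 between 30 and 3 months.

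Ogdh (ENSMUSG00000020456, chromosome 11, 6291633 to 6356642, GRCm38), for the first enzyme of the oxoglutarate dehydrogenase complex, was at 368 and 462 CPM at 3 months, 455 and 458 at 12, 465 and 639 at 24, and 537 and 536 at 30 months. Both libraries of 24 and of 30 months lay above those of 3 months. Its log2 fold changes at 24 and 30 months were 0.41 and 0.37 (SE 0.21, adjusted p = 0.698 for the second), neither of which passed. Dlst, the next enzyme of the complex, was at 162 and 176 CPM at 3 months and 156 and 177 at 30 months, and the ratio of Ogdh to Dlst per length at 3 months was 1.15 and 1.33, against 1.44 to 1.75 in the 6 later libraries.

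Cs, often used as a measure of mitochondrial content, was at 356 and 448 CPM at 3 months, 438 and 392 at 12, 421 and 681 at 24, and 440.4 and 428 at 30 months. Replicate 2 of 24 months stood alone, and the other 7 libraries lay between 356 and 448. The log2 fold change at 30 months was 0.11 (SE 0.24, 95% interval -0.44 to 0.66, adjusted p = 0.946), and it turned to -0.046 without replicate 1 of 3 months. Mdh1 was at 432 and 374 CPM at 3 months, 458 and 322 at 12, 393 and 470.2 at 24, and 334 and 549 at 30 months. The spread between the libraries of 30 months exceeded any difference between ages, and the log2 difference of 0.13 (SE 0.27, adjusted p = 0.942) became -0.27 without replicate 2 of 30 months.

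**Figure D3:**
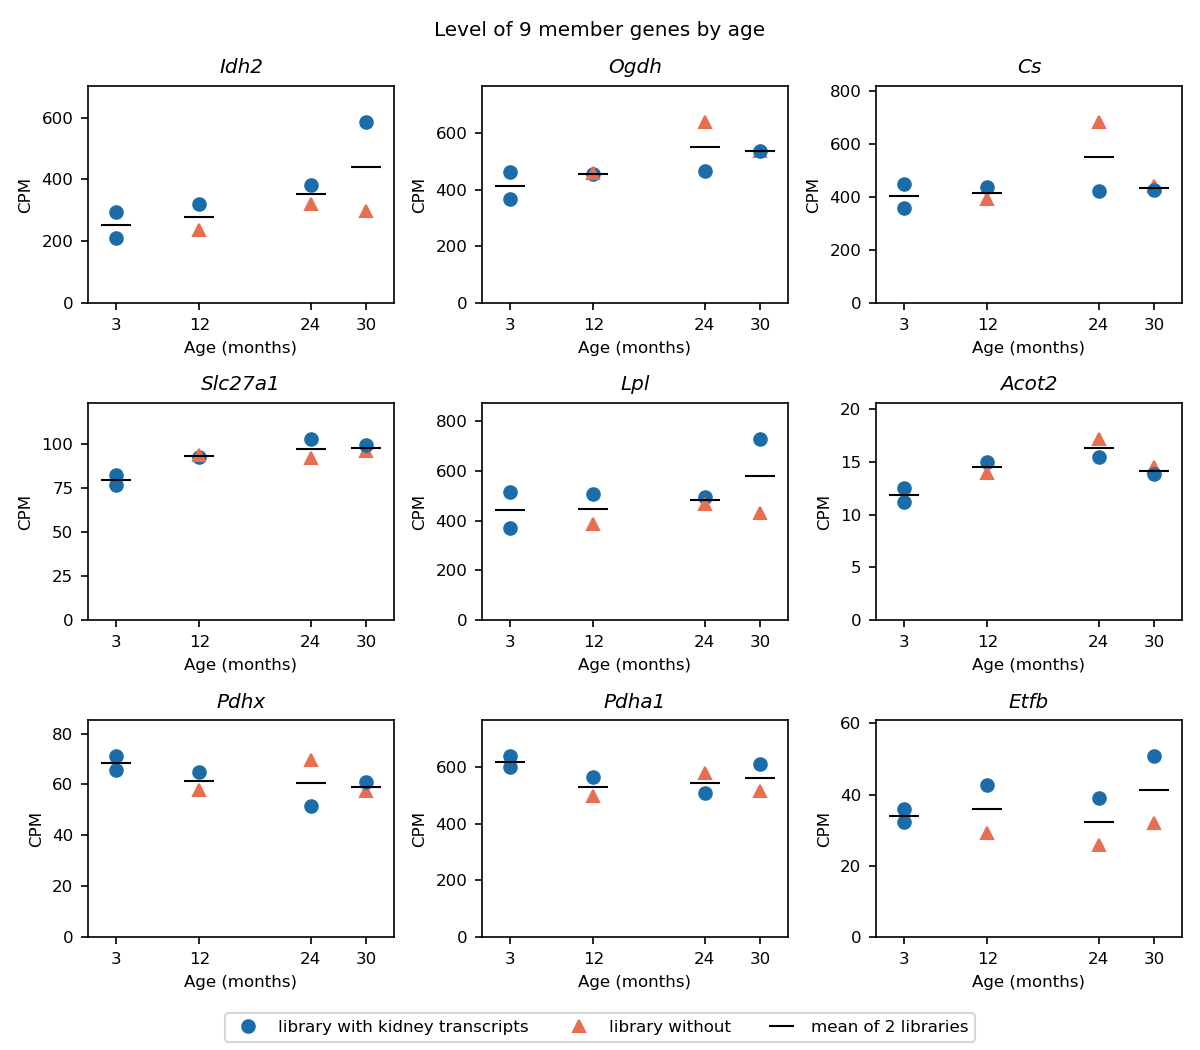
Level (CPM, scaled by TMM) of 9 of the genes in each library by age in months. Circles are libraries with kidney transcripts, triangles those without, and dashes the mean of 2 libraries. Idh2 runs from 210.2 CPM at 3 months to 585 CPM in replicate 2 of 30 months, Slc27a1 and Acot2 are above both 3 month libraries at every later age, and Cs has 1 high library at 24 months.

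Most of the 42 genes lay on the same side in 1 of the 2 libraries of an age. At 12 months 39 of 42 were lower in replicate 2 than in replicate 1, by a median of -0.35 on the log2 scale. At 30 months 38 were higher in replicate 2, by a median of 0.24, at 24 months 32 were higher, by 0.19, and at 3 months 30 were lower, by -0.13. Over all tested genes these medians lay between -0.02 and 0.02, and 47.1% to 51.2% of genes were lower in replicate 2. Scaled by library totals alone, the direction at 24 months was reversed, with 27 of 42 lower in replicate 2 and a median of -0.07, while the other 3 ages kept theirs. Replicate 2 of 12 months was the lowest of 8 libraries for 22 genes, replicate 2 of 24 months the highest for 15 and replicate 2 of 30 months the highest for 12.

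**Figure D4:**
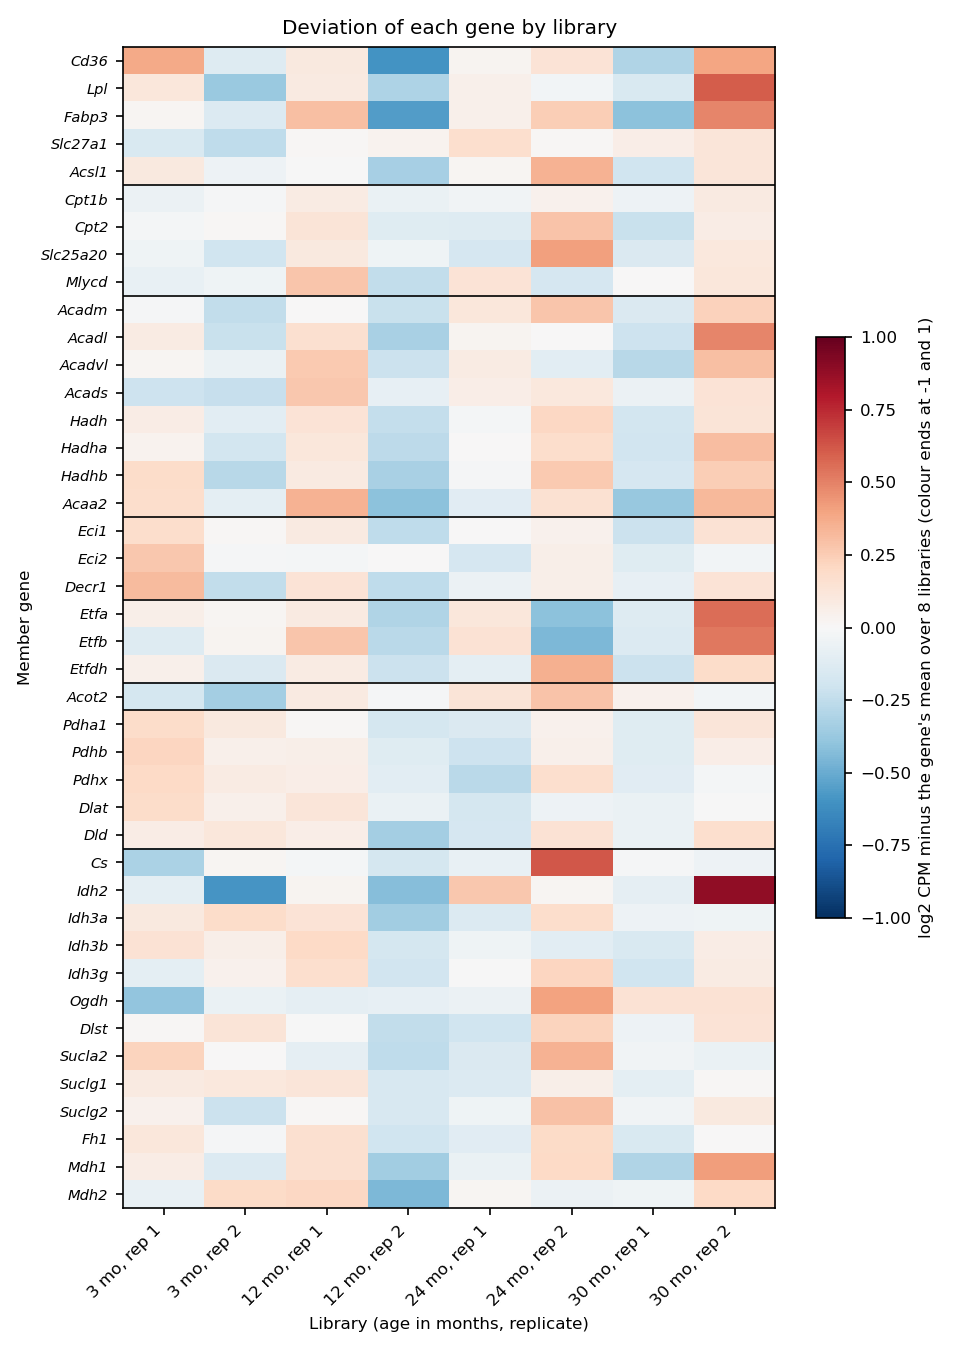
Log2 CPM of each gene minus its mean over 8 libraries, as colour, with genes in rows by role (lines part the roles) and libraries in columns. The column of replicate 2 at 12 months is mostly blue, with 22 genes at their lowest, and that of replicate 2 at 30 months is mostly red, with 12 genes at their highest.

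The sign of the median against 3 months differed with the library of the older age that was kept. At 30 months it was 0.16 without replicate 1, with 32 of 42 genes above 0, and -0.16 without replicate 2, with 8 above 0. At 12 months it was -0.23 without replicate 1, with 5 above 0, and 0.11 without replicate 2, with 30 above 0. At 24 months the median was 0.12 without replicate 1 and -0.03 without replicate 2. Within the set with kidney transcripts the medians at 12, 24 and 30 months were 0.13, -0.02 and 0.16. In the model that includes the library set they were 0.03, 0.20 and 0.09.

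The library without kidney transcripts was the lower one for 39 of 42 genes at 12 months and for 38 at 30 months. At 24 months it was the higher one for 32 genes, but the lower one for 27 when scaled by library totals alone. Of 42 genes 9 were lower in the library without kidney transcripts at all of 12, 24 and 30 months (22.2% of all genes were), namely Lpl, Mlycd, Acadl, Acadvl, Etfa, Etfb, Idh2, Idh3b and Mdh2. A single gene, Ogdh, was higher in all 3, against 21.2% of all genes, and by no more than 0.01 on the log2 scale at 12 months and at 30 months.

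**Figure D5:**
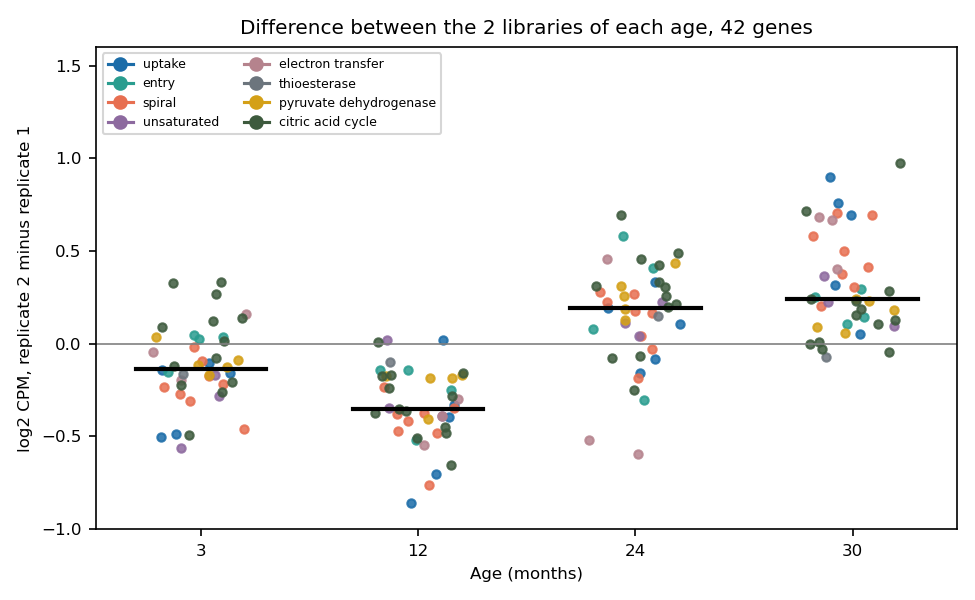
Difference in log2 CPM between the 2 libraries of each age (replicate 2 minus replicate 1), 1 point per gene coloured by role, with the median as a black line. The medians are -0.13, -0.35, 0.19 and 0.24 at 3, 12, 24 and 30 months.

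Other genes of these pathways were described from a list of 70. Of the 70, 0 were called between 30 and 3 months in edgeR's quasi-likelihood test, against 0.148% of all genes. At an unadjusted p below 0.05 there were 2 higher and 3 lower, against 8.52% of all genes. The median log2 fold change of the 70 was 0.03, and 38 were above 0. Between 24 and 3 months 0 were called (0.102% of all genes), with 5 higher and 4 lower at an unadjusted p below 0.05 (7.56%). Between 12 and 3 months 0 were called (0.0409%), with 1 higher and 3 lower (5.5%). Among the 10 genes that set the activity of pyruvate dehydrogenase or bring pyruvate in, Pdk4, the kinase that switches the complex off during fasting, had the lowest p. Pdk4 was at 421 and 659 CPM at 3 months, 304 and 209.3 at 12, 303 and 233 at 24, and 287 and 211 at 30 months. Both libraries of 3 months were above all 6 later ones, and its log2 fold changes at 12, 24 and 30 months were -1.07, -1.01 and -1.12 (SE 0.29, adjusted p = 0.255 for the last), none of which passed. Pdp1, a phosphatase that reverses the kinases, had 0.42, and the pyruvate carrier gene Mpc2 -0.30, neither of which passed.

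Angptl4, a secreted inhibitor of lipoprotein lipase, led the 13 genes of triglyceride stores and lipolysis. It was at 2.59 and 5.75 CPM at 3 months, 1.97 and 2.36 at 12, 2.15 and 1.54 at 24, then 2.02 and 1.71 at 30 months. Its difference at 30 months was -1.17 on the log2 scale (SE 0.36, adjusted p = 0.354). Gpihbp1, which holds the lipase at the capillary wall, had -0.39, and Plin3 -0.25. Among 24 further genes of fatty acid oxidation, Acad10 had 0.52, Acsl6 0.56 and Acadsb 0.33. In the peroxisomal list of 9, the transporter gene Abcd2 had -0.47. Of 3 ketone body genes Bdh1 had 0.56, Acat1 0.08 and Oxct1 -0.03, and of 11 further genes of the cycle and its shuttles Got1 had 0.31, Got2 0.20 and Me1 -0.33. Adjusted p-values of these 12 genes, from Gpihbp1 to Me1, were 0.394 or higher. Replicate 2 of 30 months, the library with most slow fibre transcripts, held Bdh1 at 92.0 CPM against 36.1 to 51 in the other 7.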

How the data were processed

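Total RNA of frozen gastrocnemius was extracted with Trizol and made into NEBNext Ultra libraries, per the labels' protocols. What the authors deposited are raw counts by Ensembl gene, in whole numbers, beside exon lengths. The submitters' processing notes name Trimmomatic 0.36, STAR 2.5.2b, featureCounts and Subread 1.5.2, and the builds GRCm38 and mm10, without roles. The annotation release, strand setting or treatment of multiple matches was not given in the sources used here. Counts of the 12 members that overlap a gene on the other strand are therefore less certain. Some members also overlap a gene on the same strand, among them Cpt1b (Gm44502), Idh2 (Gm45203) and Etfb (3 genes). Gm44502 is identical to Cpt1b over 1841 bases and had 0 counts. Levels per length and ratios of such members are less certain too. Symbols and coordinates come from GENCODE M21 (GRCm38), which matched 49056 of 49315 identifiers, and promoter sequences from RefSeq GRCm38.p6. Near copies were sought with blastn 2.17.0 (at least 95% identity over 200 bases) and found for 10 members.

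In R 4.3.3 with edgeR 4.0.16, filterByExpr kept 19571 genes, libraries were scaled by TMM, and a robust quasi-likelihood model held the 4 ages over 8 libraries, with 4 residual degrees of freedom before the spread is shared between genes, and the slope on age was fitted in a separate model. A gene was called at an adjusted p (Benjamini-Hochberg, over every tested gene) under 0.05. The standard error was taken from the fold change and its F statistic, and 95% intervals use the model's t distribution. RPKM are scaled CPM per kilobase of exon, and differences between single libraries are in log2 CPM with a prior count of 2. The procedure was tested on simulated counts.

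The members and lists were chosen with earlier results of these data known. Values per library are given for members called, for the 10 with the lowest p for 30 against 3 months, for the one with the lowest p across the ages in each role, for the 4 highest in RPKM and for the 3 that differed most between the library sets. Of other pathway lists, up to 3 genes with the lowest p are named. Some genes under this rule are not reported here. Further members with values (Cpt1b, Hadha, Hadhb, Dlst) and ratios were chosen after their values were seen. The library sets were parted at 1 CPM for the sum of 9 kidney genes. The analysis was repeated with scaling by RLE or by totals only, unfiltered or filtered more strictly (at least 1 CPM in 2 libraries, mean log2 CPM of 1 or more), with DESeq2 1.42.0, a replicate block, the library set as a term, and each library left out with the same genes tested.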

Additional observations from a re-analysis of the deposited data

How the results depend on the processing

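The count of members called stayed at 0 in each of the 8 comparisons under RLE size factors, library totals alone, both other filters, DESeq2, the replicate block and each library left out. In the model that includes the library set it was 1 for 30 against 3 months and 1 for the slope on age, Idh2 in both, and Idh2 then had a log2 fold change of 1.02. Leaving out single libraries, the members' median ran from -0.23 to 0.11 for 12 against 3 months, from -0.03 to 0.12 for 24 against 3 months and from -0.16 to 0.16 for 30 against 3 months, the ends being set by the 2 libraries of the older age. With library totals alone the median for 24 against 3 months was -0.05. The log2 fold change for 30 against 3 months changed sign without replicate 2 of 30 months for 7 named genes, with ranges over the libraries left out of -0.039 to 0.72 (Lpl), -0.091 to 0.57 (Etfb), -0.14 to 0.55 (Acadl), -0.028 to 0.22 (Slc25a20), -0.17 to 0.52 (Etfa), -0.35 to 0.55 (Fabp3) and -0.27 to 0.44 (Mdh1), and without replicate 1 of 3 months for Cs (-0.046 to 0.28). Without replicate 2 of 30 months, that age keeps only its library without kidney transcripts, while both of 3 months are in the other set. The cause of these changes of sign was not tested. Leaving out a library leaves a lone one, whose spread is taken from the other ages. The labels do not say if the replicate numbers pair the libraries. Between ages, the differences of replicate 1 and 2 correlated across genes at -0.36 to 0.26, which cannot decide it. The value was 0.26 for 12 with 24 months, where replicate 2 is the library without kidney transcripts. It was -0.36 and -0.30 for 12 and 24 with 30 months, where replicate 1 is that library. Over all genes, 29 were called between 30 and 3 months, against 213 with DESeq2, 378 without the filter, 9 with the stricter one, 416 with the library set, and 9 to 51 with a library left out. With the replicate block it was 13, and members' medians were -0.03, 0.04 and 0.03 at 12, 24 and 30 months. The spread between 2 libraries per age, more than depth, limits the intervals.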
